A study of Homo sapiens with 2 samples.

Results

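MicroRNA genes were examined in the accessible chromatin of H1 cells, an established human embryonic stem cell line, by ATAC-seq, which reads out open DNA through adapter insertion by the Tn5 transposase. The cells were thawed from frozen stocks, treated with DNase I against DNA released by dead cells, purified over Ficoll and processed by Omni-ATAC; the labels name no genotype change and no other agent. There were 2 samples, replicates 1 and 2 of 1 group, which the labels do not describe as separate cultures, and 1 peak list for both. No condition was compared, and no value has a replicate spread. A peak list records open DNA and not RNA, and nothing here shows whether a microRNA was made. Of 160327 distinct regions in the list, 299 had a strongest summit at most 1 kb from a GENCODE microRNA gene and over 2 kb from the outermost 5′ end of every protein-coding gene. These 299 are called members below. Another 126 regions lay within 1 kb of a microRNA gene but closer to a protein-coding 5′ end. The members served 283 of 1879 annotated microRNA genes on 23 chromosomes; 279 of them had 1 microRNA gene in reach, 19 had 2 and 1 had 4.

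MicroRNAs are short RNAs cut from a hairpin in a longer transcript by Drosha with DGCR8 and then by Dicer. Bases 2 to 8 of the mature strand, the seed, pair with target messages, so microRNAs with the same seed share many targets. In human pluripotent cells the miR-302 and miR-371 clusters are characteristic, the miR-17 clusters are linked to proliferation, and mature let-7 is held down by LIN28. Others belong to differentiated tissue, such as miR-9 and miR-124 in neurons, miR-1 and miR-133 in muscle and miR-122 in liver. A hairpin is often far from the promoter that drives it, so a region beside a hairpin need not be that promoter.

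Mature sequences of microRNAs named below are shown first, to group the loci by seed. They are from RefSeq (GRCh38.p14), written 5′ to 3′ with the seed in capitals. By symbol, 1717 of the 1879 genes matched that table, as did 257 of the 283 genes beside a member. The first lines hold the microRNAs typical of pluripotent cells and of proliferation.
miR-302a-3p: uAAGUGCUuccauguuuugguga
miR-302b-3p: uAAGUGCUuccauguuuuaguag
miR-302c-3p: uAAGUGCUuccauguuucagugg
miR-302d-3p: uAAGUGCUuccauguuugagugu
miR-372-3p: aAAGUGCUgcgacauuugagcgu
miR-373-3p: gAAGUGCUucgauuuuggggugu
miR-17-5p: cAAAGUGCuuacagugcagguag
miR-106b-5p: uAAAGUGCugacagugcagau
miR-512-3p: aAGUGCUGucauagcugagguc
miR-367-3p: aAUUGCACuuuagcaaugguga

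The next lines hold microRNAs grouped as neural below, then let-7i and a pair of epithelial microRNAs. The last 2 are abundant in stromal and immune cells.
miR-9-5p: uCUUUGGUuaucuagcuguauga
miR-137-3p: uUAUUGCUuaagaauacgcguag
miR-128-3p: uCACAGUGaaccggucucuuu
miR-138-5p: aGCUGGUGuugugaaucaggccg
miR-132-3p: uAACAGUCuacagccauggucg
miR-212-3p: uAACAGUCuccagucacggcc
miR-153-3p: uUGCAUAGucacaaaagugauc
miR-219a-5p: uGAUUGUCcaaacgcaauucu
miR-125b-5p: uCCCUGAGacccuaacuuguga
let-7i-5p: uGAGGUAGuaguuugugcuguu
miR-200c-3p: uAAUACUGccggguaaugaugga
miR-141-3p: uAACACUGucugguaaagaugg
miR-21-5p: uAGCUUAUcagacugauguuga
miR-155-5p: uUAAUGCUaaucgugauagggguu

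Of all 1879 microRNA genes, 401 (21.3%) had the summit of some region in reach, which here means within 1 kb. The miR-302 cluster carried the one member that reached 4 microRNA genes. This cluster, transcribed on the minus strand inside the host gene MIR302CHG and within LARP7 on the other strand, had a region at chr4:112648625-112649219. Its deposited fold, the authors' enrichment of a summit over background, was 5.11, at the 46.7th percentile of all regions in the list. The summit lay upstream of every hairpin: by 455 bp for MIR302B, 582 bp for MIR302C, 761 bp for MIR302A, 941 bp for MIR302D and 1071 bp for MIR367, the last just out of reach. It was 272 bp from the nearest annotated start of a MIR302CHG transcript and 11935 bp from the nearest protein-coding 5′ end. The miR-371 cluster differed: MIR371A, MIR371B, MIR372 and MIR373 had no region in reach, and the nearest summits lay 4792, 4794, 5007 and 4404 bp away, the last in a region of fold 12.8. Of the 11 listed genes that share the seed AAGUGCU, the 4 of the miR-302 cluster had a region and the other 7 (MIR372, MIR373 and 5 of the miR-520 genes) had none.

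No hairpin of the miR-17 clusters had a region within 1 kb (0 of 15, exact 95% interval 0% to 21.8%). That interval treats the hairpins of a cluster as independent, which they are not. The nearest summits lay 1623 to 4718 bp away. Upstream of MIR17, MIR18A, MIR19A, MIR20A, MIR19B1 and MIR92A1, which sit in a row, the nearest region (chr13:91346905-91349219, fold 8.30) had its summit 108 bp from the 5′ end of the host MIR17HG and 3027 to 3736 bp from the hairpins. The paralogous cluster on the X chromosome, MIR106A, MIR18B, MIR20B, MIR19B2, MIR92A2 and MIR363, had a region of fold 4.48 at 3892 to 4718 bp upstream. MIR106B, MIR93 and MIR25 lie in an intron of a protein-coding gene, and their nearest region (fold 2.55) was 1623 to 2056 bp downstream. For these hairpins the 1 kb limit therefore leaves out the nearest open DNA.

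Of the 12 let-7 genes, all of which share the seed GAGGUAG, MIRLET7I alone had a region in reach. That region, chr12:62602373-62603939, was 1567 bp wide with 6 summits and a fold of 7.16. Its strongest summit lay 880 bp upstream of the hairpin and 54 bp from the 5′ end of the host MIRLET7IHG. MIRLET7A1, MIRLET7F1 and MIRLET7D had their nearest region, of fold 10.6, 9860, 10250 and 12737 bp upstream, at a start of MIRLET7A1HG. MIRLET7E (1721 bp), MIRLET7B (2879 bp), MIRLET7A3 (3825 bp), MIRLET7A2 (7649 bp), MIRLET7G (9424 bp) and MIRLET7C (11419 bp) followed no common distance. MIR98 and MIRLET7F2, which lie together in an intron, were farthest, at 73948 and 74917 bp.

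Neural microRNA genes had a region more often than the annotation as a whole: 15 of 24, or 62.5% (exact interval 40.6% to 81.2%), against 21.3% (19.5% to 23.3%) of all genes. With a window of 500 bp the count was 9 of 24 and the share of all genes 13.1%, and among regions above the list's median −log10 p they were 10 of 24 and 14.2%. The interval of the list lay above that of all genes; the list was chosen with results of these data known, and the difference was not tested. The 15 genes used 19 separate regions, 18 of them members. The median fold of the 19 was 4.37, against 5.01 for all members. The list's genes are somewhat richer in G+C over 500 bp to either side (median 52.4%, against 48.1% for all). With all genes split by G+C into 5 classes of nearly equal size, the share with a region was 10.4% in the lowest, 19.9% in the one next to the highest and 40.4% in the highest. The part of G+C in the neural count was not tested.

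All 3 genes of miR-9, which acts in neural progenitors, had regions. MIR9-2 had the strongest, with a fold of 8.01 at 376 bp upstream (chr5:88666898-88667627) and another of 3.12 at 867 bp. MIR9-3 had folds of 4.85 at 396 bp upstream and 3.28 at 758 bp downstream, and MIR9-1 a single region of 2.98 at 270 bp downstream. All 3 genes of miR-124, the most abundant microRNA of neurons, had regions as well. MIR124-1 had 3, one with its summit in the hairpin at a fold of 2.12 and others of 3.30 and 5.83 at 202 and 958 bp upstream. MIR124-2 had folds of 7.66 upstream and 5.82 downstream, at 865 and 789 bp. MIR124-3 had 2.26, with the summit 53 bp past the hairpin. Within the miR-124 and miR-9 families the folds ran from 2.12, at the 0.145th percentile of all regions, to 8.01, at a percentile of 73.3.

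For other neural microRNAs with duplicate genes, often one copy had a region and the other had not. MIR128-2, in an intron of ARPP21, had the strongest region of the list at a fold of 15.3 (96.6th percentile), 74 bp past the hairpin, while the nearest summit to MIR128-1 was 44625 bp away. MIR138-1 reached 6.92 at 14 bp past the hairpin, and the nearest summit to MIR138-2 was 6332 bp away. MIR153-1 had 7.73 at 827 bp upstream, and the nearest summit to MIR153-2 was 5455 bp away. MIR125B1 had 3.97 at 598 bp upstream, whereas the nearest region of MIR125B2, of fold 11.2, lay 1656 bp upstream at a start of MIR99AHG. MIR219A2 had 4.37 at 674 bp upstream; MIR219A1 had 4.07, but in a region only 281 bp from a protein-coding 5′ end, which is no member. MIR132 and MIR212, which share the seed AACAGUC, shared a region of fold 3.95 with its summit between them. MIR137 had a region of 4.53 (chr1:98045183-98046335) with 4 summits, the strongest inside the hairpin of MIR2682 and 749 bp downstream of MIR137. The 3 genes of miR-7 and both of miR-218 had none in reach, with MIR7-3 at 1036 bp and MIR7-2 at 1385 bp just outside.

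**Figure D1:**
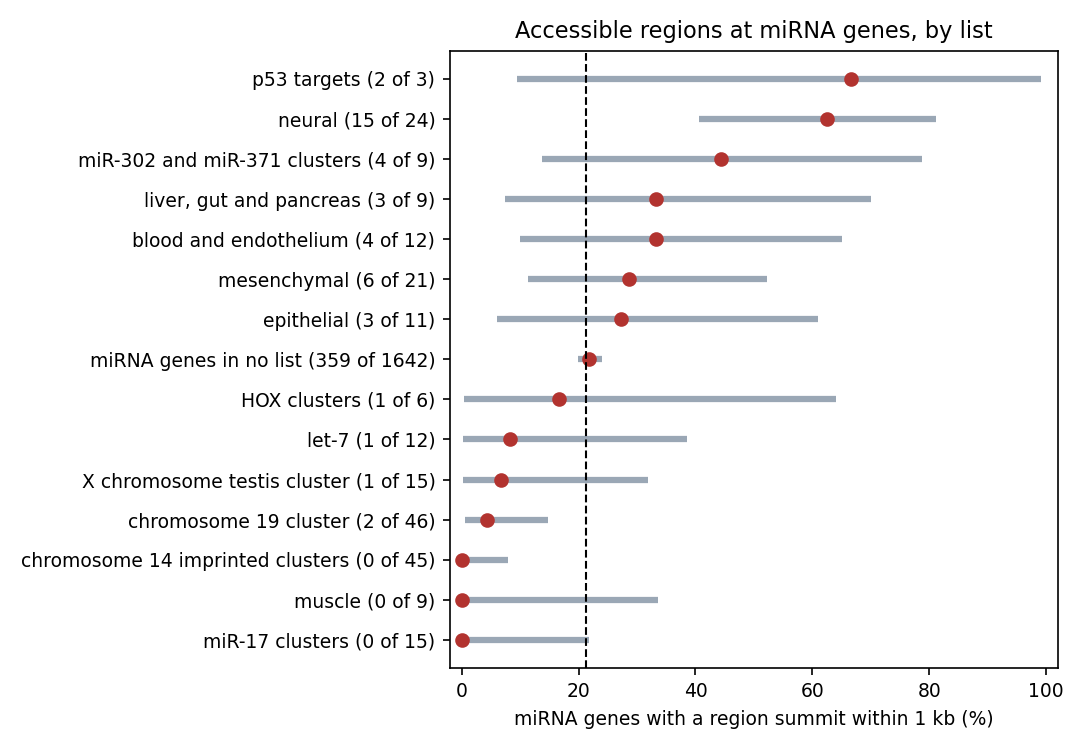
Percent of the microRNA genes of each list that had a region whose strongest summit lay in a 1 kb reach (points, x axis), with exact 95% binomial intervals (bars); the dashed line is the share of all 1879 genes, 21.3%. The neural list (15 of 24) has its whole interval above the line, the chromosome 14 clusters (0 of 45) and the chromosome 19 cluster (2 of 46) have theirs below it, and the other lists' intervals reach or cross it. The intervals treat the genes of a cluster as independent, which they are not.

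A lncRNA transcript often began beside these regions. Of the 19 regions at neural microRNA genes, 14 had an annotated lncRNA start within 1 kb, among them starts of MIR9-1HG, MIR9-3HG, MIR124-1HG, MIR137HG and LINC00461, the host of MIR9-2. Regions at the same gene were counted separately, as with the 3 at MIR124-1. The 14 include the region at MIR219A1, which is no member. A lncRNA start lay within 1 kb for 59 of all 299 members, 19.7% (15.4% to 24.7%). It did so for 3.84% of the other 142765 regions beyond 2 kb of any protein-coding 5′ end, called other distal regions here. Members were chosen beside microRNA genes, and 352 of all 1879 such genes lie in a lncRNA gene on the same strand. The part of that choice in these shares, and in the 14 of 19, was not tested. With the outermost 5′ end of the lncRNA gene alone the shares were 12.4% (37 members) and 2.92%. These 37 had a median width of 797 bp and a median G+C of 70.6%, against 480 bp and 55.2% for the other 262, and median folds of 5.58 and 4.91. In 8 of the 37 the start was that of a named microRNA host gene: MIR210HG (fold 9.02), beside the hypoxia-induced miR-210, MIR202HG (7.49), MIRLET7IHG (7.16), MIR200CHG (5.00), MIR219A2HG (4.37), MIR762HG (9.96), MIR3663HG (6.72) and MIR1915HG (2.27).

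Among epithelial microRNAs, MIR200C and MIR141, which oppose the loss of epithelial character, shared a region of 998 bp at chr12:6962541-6963538 with a fold of 5.00. Its summit was 37 bp from the 5′ end of MIR200CHG. MIR200A, MIR200B and MIR429, the other cluster of that family, had none. MIR183 had a fold of 2.23, at the 0.311th percentile of the list, at 805 bp upstream.

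Of the blood and endothelial list, 4 of 12 genes had a region, each with 1. MIR146A, induced in inflammation, had a fold of 9.04 at 142 bp past the hairpin, MIR181B2 5.53 at 99 bp upstream, MIR155 4.15 with the summit inside the hairpin, and MIR150 1.94, the lowest fold of any member. In the liver, gut and pancreas list 3 of 9 had one. MIR216A, a pancreatic microRNA, had 3 regions of folds 3.33, 4.48 and 3.09 from one side of the hairpin to the other, MIR216B 1 of 4.15, and MIR375, which is found in endocrine cells, 2 of 3.18 and 4.97. The 6 regions over 3 genes ranged from 3.09 to 4.97, all below the members' median of 5.01.

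In the mesenchymal list 6 of 21 had a region. MIR21 stood highest at 7.55, 535 bp upstream, within VMP1. MIR145 and MIR143, both typical of smooth muscle, had 4.32 and 4.16 at 219 and 32 bp upstream, MIR199B 4.08, MIR199A2 2.93, and MIR22 2.61 in its member region and 3.01 in a region 1674 bp from a protein-coding 5′ end. The HOX list had 1 of 6, MIR196B at 3.74. The p53 targets MIR34B and MIR34C shared a region of fold 5.10 that lies 1344 bp from a protein-coding 5′ end and is no member. The nearest summit to MIR34A was 9219 bp away.

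The large clusters on chromosomes 14 and 19 had few regions against the 21.3% of all genes. None of the 45 genes of the imprinted chromosome 14 clusters had one (upper limit of the interval 7.87%), and the nearest summits were a median of 23714 bp away. The intervals here treat the genes of a cluster as independent, which they are not. The chromosome 19 cluster, active in placenta, had 2 of 46 (4.35%, 0.531% to 14.8%), MIR512-1 and MIR512-2, which lie at its start. Their folds were 6.50 and 4.24, with summits 129 and 148 bp upstream. The sequences of these regions are 98.4% identical over 451 aligned bases. Reads from one copy can therefore be placed on the other, and the split between them is uncertain. No other genes of the cluster were compared in sequence, and the part of such copies in the count of 2 was not tested. For the muscle list (0 of 9, 0% to 33.6%) and the X chromosome testis cluster (1 of 15, 0.169% to 31.9%, MIR513B at a fold of 6.18) the intervals held the share of all genes.

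**Figure D2:**
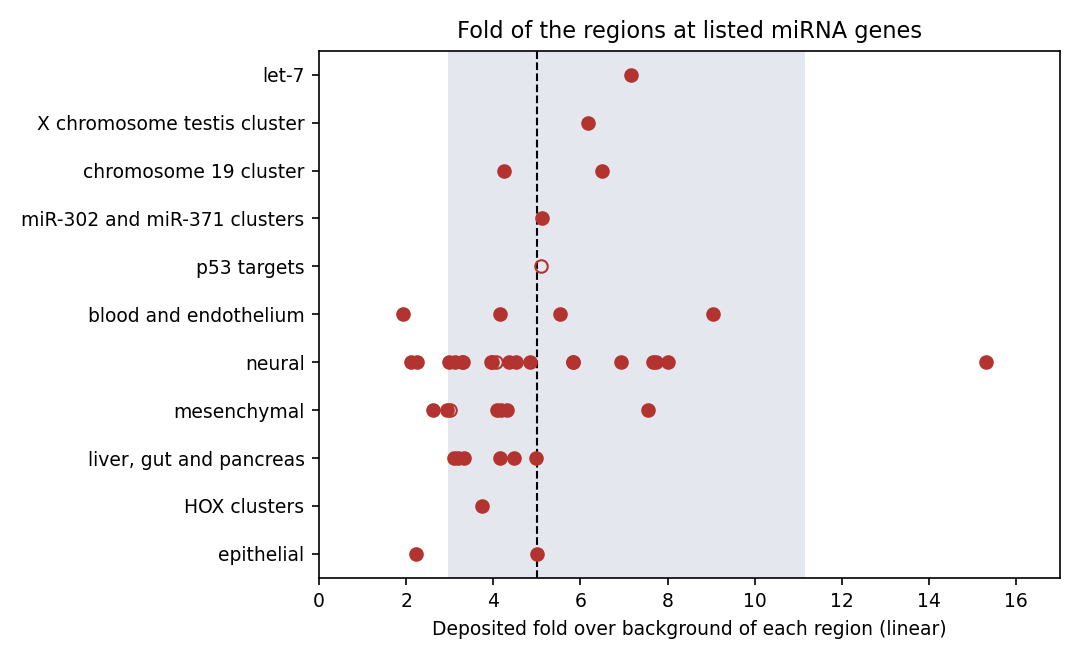
Deposited fold (x axis, linear) of each separate region within 1 kb of a listed microRNA gene, by list; filled points are members, open points lie within 2 kb of a protein-coding 5′ end. The dashed line is the median of all members (5.01) and the band their 10th to 90th percentile (2.98 to 11.1). Only the region at MIR128-2 (15.3) lies above the band. Regions at MIR150 (1.94), MIR124-1 (2.12), MIR183 (2.23), MIR124-3 (2.26), MIR22 (2.61) and MIR199A2 (2.93) lie below it.

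The windows below show how summits sit against hairpins at 3 such loci, in hg38 on the strand of the microRNA, with the hairpin in capitals and 30 bases beyond the outer of hairpin and summit. At MIR155 the summit lies inside the capitals; at MIR138-1 and MIR128-2 it lies 30 bases from the end printed last.
MIR155, chr21:25573950-25574074, plus strand: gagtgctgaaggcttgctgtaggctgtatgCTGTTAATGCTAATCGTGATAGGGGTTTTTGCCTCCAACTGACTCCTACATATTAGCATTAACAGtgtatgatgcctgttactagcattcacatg
MIR138-1, chr3:44114182-44114354, plus strand: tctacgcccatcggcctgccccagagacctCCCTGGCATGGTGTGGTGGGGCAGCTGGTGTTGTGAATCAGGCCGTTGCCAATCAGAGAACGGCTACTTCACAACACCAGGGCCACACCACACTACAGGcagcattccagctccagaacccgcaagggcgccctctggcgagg
MIR128-2, chr3:35744446-35744663, plus strand: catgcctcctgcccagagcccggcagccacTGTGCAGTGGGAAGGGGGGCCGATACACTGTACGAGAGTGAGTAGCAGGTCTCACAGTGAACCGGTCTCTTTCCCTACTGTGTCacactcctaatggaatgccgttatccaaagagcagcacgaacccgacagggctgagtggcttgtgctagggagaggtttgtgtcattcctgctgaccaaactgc

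Over all members, summits gathered close to the hairpin. They lay inside it in 17 cases (5.69%, 3.35% to 8.95%) and within 200 bp of it or inside in 114 (38.1%, 32.6% to 43.9%). The 200 bp next to the hairpin held 53 summits upstream and 44 downstream, and the next 200 bp held 21 and 18. Upstream summits made up 162 of the 299 (54.2%, 48.3% to 59.9%), or 57.4% (51.4% to 63.3%) of the 282 outside the hairpin. From 801 to 1000 bp there were 34 upstream and 14 downstream. The median folds were 4.98 upstream, 4.53 inside and 5.20 downstream. In steps of 200 bp they ran from 4.00 to 5.43, apart from 8.77 for the 14 farthest downstream. That value was named because it was the highest of the steps, and it has no interval. A region overlapped a hairpin, which has a median length of 80 bp, in 134 members (44.8%). Of the 139 hairpins so reached, 105 lay whole within the region.

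**Figure D3:**
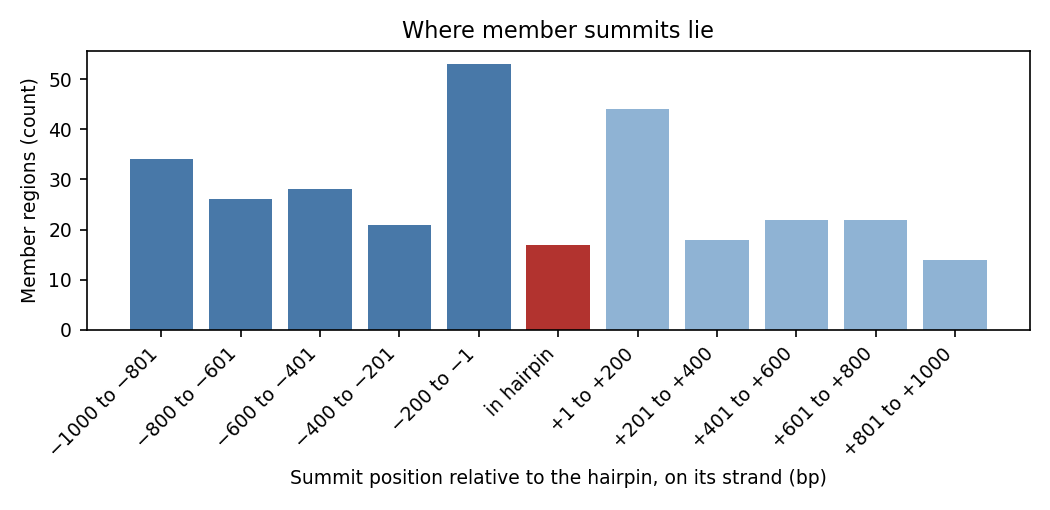
Number of members (y axis) by the position of the strongest summit relative to the nearest hairpin, on the hairpin's strand, in steps of 200 bp (dark blue upstream, red inside, light blue downstream; the hairpin's median length is 80 bp). The steps next to the hairpin hold 53 and 44 members, while the other steps hold between 14 and 34.

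Among the summits inside a hairpin, the highest folds were at MIR6132 (13.4), in an exon at the ST7 locus and 2 bp from an annotated protein-coding transcript start, MIR7853 (11.1), in an intron of F13A1, MIR6718 (10.97), MIR2277 (9.91), in an exon of FAM172A, and MIR6089 (8.97). MIR326, in an intron of ARRB1, followed with 5.75, MIR30A with 5.20, MIR5006 with 4.90, MIR2682 with 4.53 and MIR216A with 4.48. The strongest regions that reached 2 microRNA genes were at MIR3155A and MIR3155B (11.3), MIR7853 and MIR5683 (11.1), MIR3130-1 and MIR3130-2 (10.4) and MIR1245A and MIR1245B (7.77). Each of these pairs is annotated on opposite strands of overlapping sequence.

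The 10 strongest members were, with MIR128-2 as an exception, at microRNAs outside the lists. The first, at MIR7157 in an intron of LRP1B (chr2:140586291-140586771), reached 26.3, at the 99.99th percentile of all regions, and its summit was 51 bp past the hairpin. MIR5708 (20.5, intergenic) and MIR4716 (20.3, in an intron of GALK2) followed. MIR4449 had 16.2, in an exon of DANCR, a lncRNA that restrains differentiation, at whose 5′ end the region lies. MIR5189 had 15.8, in an intron of ZFPM1, MIR658 15.2, in an intron of ANKRD54, and MIR639 15.2, in an exon where DNAJB1 and TECR overlap. MIR4729 (14.9) lay in an intron of YPEL2 and MIR6090 (14.5) in one of ETS1. The summits at MIR4716, MIR658, MIR639 and MIR6090 were 77, 114, 85 and 49 bp from an annotated protein-coding transcript start other than the outermost 5′ end. In all, 67 members (22.4%) were within 1 kb of such a transcript start, with a median fold of 5.54 against 4.88 for the rest. The share among other distal regions was not counted. Folds above 10 were found at 42 of the 299, and this count was not made for other distal regions. The 90th percentile of fold was 11.1 in members, 11.4 in other distal regions and 11.9 in all regions, so high folds did not set members apart.

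As a group the members were wider than other distal regions, and the interval of their median fold held the others' median. The median fold was 5.01 (interval of the median 4.66 to 5.43), against 5.22 (5.22 to 5.23). The median width was 497 bp (457 to 540) against 426 bp (425 to 428), and 32.8% against 26.1% held more than 1 summit. Within classes of G+C at the summit the widths were closer and did not all differ the same way. The medians were 452 against 390 bp below 45% G+C, 446 against 413 bp from 45% to 55%, 456.5 against 479 bp from 55% to 65%, and 755 against 730 bp from 65%. The median folds in the highest class were 5.24 against 6.09. Members were nearer to protein-coding genes, at a median of 32665 bp from a 5′ end against 85580 bp. By place, 180 summits (60.2%) lay in a protein-coding gene, 67 (22.4%) in a lncRNA gene and 49 (16.4%) in no gene, against 49.1%, 15.3% and 34.7% of other distal regions. The microRNA genes themselves lie mostly in other genes, with 273 of 1879 outside them. By part, 169 lay in introns and 81 in exons, a split that was not counted for other distal regions.

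Open DNA was denser at microRNA genes than elsewhere beyond the same distance from protein-coding 5′ ends. The 3.18 Mb within 1 kb of a microRNA gene held 93.9 regions per Mb, against 49.9 per Mb over 2865 Mb, a ratio of 1.88 (1.67 to 2.11, counting error only). Per gene, 275 of the 1643 microRNA genes that lie beyond 3 kb of protein-coding 5′ ends had a region within 1 kb, or 16.7% (15.0% to 18.6%). By the same count the share was 8.12% (6.36% to 10.2%) for small nucleolar RNA genes, which guide RNA modification, 10.1% (8.73% to 11.5%) for small nuclear RNA genes, most of them copies of spliceosomal RNAs, and 10.2% (8.96% to 11.6%) for miscellaneous RNA genes. The interval for microRNA genes lay above those of the other classes; the difference, and the part of G+C in it, were not tested. Within 3 kb of a protein-coding 5′ end 126 of 236 microRNA genes had a region (53.4%). By host, the share beyond 3 kb was 15.5% in protein-coding genes on the same strand, 16.9% in lncRNA genes, 20.9% where the microRNA was in another kind of gene or on the other strand, and 16.7% outside genes, with intervals that overlap.

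Sequence at member summits was rich in G+C. Within 100 bp of the summit the median was 56.7% (55.2% to 60.2%) against 48.3% in other distal regions, and the ratio of observed to expected CpG was 0.326 against 0.183. Of the members, 27.8% (22.8% to 33.2%) had 65% G+C or more, against 5.83%. Those members had a median width of 755 bp, against 446 bp for members of 45% to 55%.

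**Figure D4:**
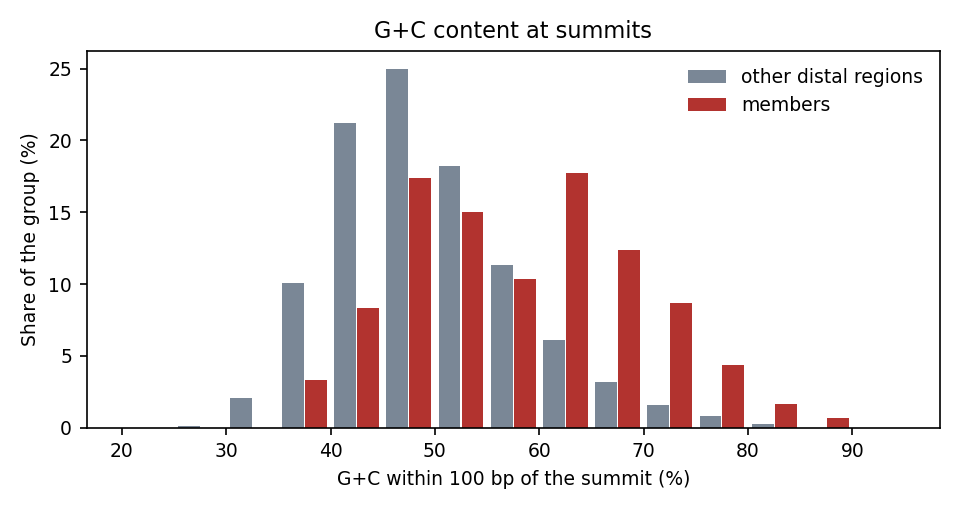
Share of members (red) and of other distal regions (grey) by G+C content within 100 bp of the summit (x axis, steps of 5 percentage points). The medians were 56.7% and 48.3%, and members of 65% or more made up 27.8% against 5.83%.

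Strings of 12 motifs were counted on both strands within 100 bp of the summit; no string is contained in another. The GC box GGGCGG, bound by SP and KLF factors, was in 28.4% of member windows (23.4% to 33.9%) against 9.47% in other distal regions and 14.8% in all regions. ACAAAG, the core of SOX and TCF sites, was in 12.4% (8.86% to 16.7%) against 20.3%, and the TEAD string GGAATG in 13.7% (10.02% to 18.1%) against 19.1%. Member windows were also richer in G+C, and its part in these shares was not tested. The octamer ATTTGCAT, bound by POU factors such as OCT4, was in 22 windows, 7.36% (4.67% to 10.9%), against 4.20% (4.10% to 4.31%) in other distal regions and 3.89% in all regions. With a 2 kb window to the microRNA gene the members' share was 4.89% (3.19% to 7.14%). In windows of 45% to 55% G+C it was in 13 of 97 members (13.4%, 7.33% to 21.8%) against 4.25%, and in those below 45% in 4 of 35 (11.4%, 3.20% to 26.7%) against 6.30%. From 55% to 65% it was in 2 of 84 (2.38%, 0.290% to 8.34%) against 1.29%. From 65% it was in 3 of 83 (3.61%, 0.752% to 10.2%) against 0.468%. The ETS string CCGGAAG was in 9 windows, 3.01% (1.39% to 5.64%), against 1.25% in other distal regions. Its share of 2.28% in all regions lay within the members' interval. For TGANTCA (AP-1), CTAGNNGGC (CTCF), GCGCATGC (NRF1), CCAAT (NF-Y), CAGCAGG (ZIC), TGTTTAC (forkhead) and CACGTG (E box) the members' interval held the share of other distal regions.

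**Figure D5:**
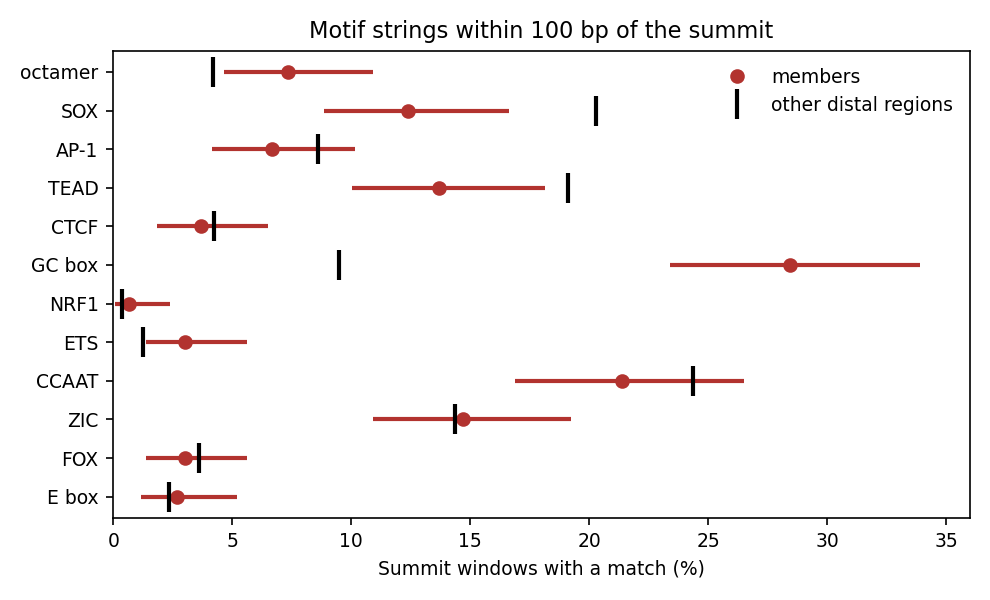
Percent of summit windows with a match (x axis) in members (red, with exact 95% intervals) and in other distal regions (black ticks) for 12 motif strings. The tick lies outside the members' interval for the octamer (4.20% against 7.36%), GC box and ETS strings, where members are higher, and for the SOX and TEAD strings, where they are lower.

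The 22 windows with an octamer included those of MIR9-2, MIR21, MIR512-1, MIR512-2 and MIR216B among the lists, and MIR5189 (15.8), MIR5700 (13.4) and MIR5011 (12.2) at the highest folds. The window at MIR9-2, the strongest region of the miR-9 genes, is shown here in hg38 on the strand of the microRNA, 201 bases centred on the summit. The octamer is in capitals and reads in the other orientation. A match is a string and not a shown binding site.
MIR9-2, chr5:88667215-88667415, minus strand: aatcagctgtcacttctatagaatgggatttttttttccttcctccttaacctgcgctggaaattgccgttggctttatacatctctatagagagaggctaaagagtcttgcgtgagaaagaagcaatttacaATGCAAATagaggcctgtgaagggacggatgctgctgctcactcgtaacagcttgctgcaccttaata

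Members were aligned to mitochondrial DNA. Apart from the pair at MIR512-1 and MIR512-2, other copies in the genome were not looked for, so members with such copies were not counted. The 2 regions at the unnamed microRNA gene ENSG00000278791 on chromosome 1 lie in MTCO1P12, a copy of a mitochondrial gene, and align to mitochondrial DNA over 535 and 519 bp at 99.3% and 99.2% identity. Their −log10 p of 4644 and 3690 were the highest of all members while their folds were only 3.64 and 3.30. A region by ENSG00000263963 aligned over 204 bp at 97.1%. At the limits of the rule, the last member inside 1 kb was at MIR4514 (997 bp, fold 3.18) and the first region outside at MIR4695 (1018 bp, 6.58). The member nearest to a protein-coding 5′ end was at MIR5188 (2381 bp, 4.66), and the nearest region left out on that side was at MIR92B (1974 bp, 5.00).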

How the data were processed

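The 2 samples of H1 cells share 1 deposited peak list, on GRCh38 per the submitters' processing notes. For the aligner and peak caller, nothing is given in the sources used here. Units follow the narrowPeak layout. The deposited fold is a ratio to a background of unstated kind, and the deposited score, −log10 p-value and −log10 q-value came from the authors' peak calling. The fold and −log10 p served only to describe and rank regions. The list holds no value per library, and library depth was not analysed here.

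Rows with the same coordinates (236878 in all) formed 1 region each, placed at the summit with the highest fold. Distances run from that summit to GENCODE release 44 genes. Intervals of shares are exact (Clopper-Pearson) at 95%, those of medians are from binomial order statistics; both cover counting error only, and regions or genes of a cluster are not independent. Members were aligned to mitochondrial DNA with blastn 2.17.0. Python 3.11.15 with pandas 2.3.3, scipy 1.17.1 and pysam 0.24.0 was used, and the membership functions were tested on simulated regions.

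The members and the 14 microRNA lists were chosen with earlier results of these data known. Named were all members at listed genes, all genes of the miR-302 and miR-371, miR-17 and let-7 lists, the 10 members of highest fold, the 10 strongest with the summit in a hairpin, and the 5 reaching the most microRNA genes (ties by fold). Alternatives changed the windows, the summit, the peak threshold and the genes used.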

Additional observations from a re-analysis of the deposited data

How the results depend on the processing

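No paired analysis was possible because the list gives no values per replicate, and for the same reason no replicate was left out. The 299 members became 168 with a 500 bp window, 511 with 2 kb and 155 among regions above the median −log10 p of the list. The share of microRNA genes with a region, 21.3%, became 13.1%, 32.2% and 14.2% under these, and 25.4% when the nearest edge of a region counted in place of its summit. The median fold of 5.01 rose to 7.49 above the median −log10 p. The median G+C of 56.7% fell to 54.2% when any annotated protein-coding transcript start was kept at 2 kb distance. Different regions enter under each alternative, and the reasons for the changes were not tested. The neural genes with a region numbered 9 of 24 with a 500 bp window 10 above the median −log10 p, 18 with 2 kb, 16 by the nearest edge, and 15 with any summit or with MIR symbols alone; it was not recounted under the others. The octamer share ran from 4.89% (2 kb window) to 9.52% (500 bp window). The upstream share ran from 48.8% (500 bp window) to 57.4%. Leaving out the regions that align to mitochondrial DNA, or keeping 1 region per cluster within 10 kb, both chosen after seeing the data, gave median folds of 5.08 and 5.41 and octamer shares of 7.43% and 8.05%.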

Other observations

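Over all microRNA genes, 283 of 1879 (15.1%) had a member. The 3 genes with the seed GAGAACU each had a member: MIR146A, MIR146B (fold 3.22, 900 bp upstream) and MIR7153 (6.71, 522 bp upstream). So did the 3 with the seed GGCGGGG, MIR1908, MIR663A and MIR6787. These families were singled out because their genes had members, so their counts show no pattern of families. MIR320B2 had members of fold 11.03 and 4.78 on either side of its hairpin.

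MIR3618 and MIR1306, whose hairpins lie in DGCR8, the gene for a partner of Drosha in hairpin cutting, shared a member of fold 5.14 with its summit 629 bp upstream of MIR3618. MIR301B and MIR130B, a pair on chromosome 22, had a member of fold 9.68 at 857 bp upstream of MIR301B and another of 3.05 at 73 bp past it. Over all 1879 microRNA genes the nearest summit was a median of 4321 bp away (10th to 90th percentile 289 to 24503 bp).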
